A study of Mus musculus with 8 samples.

Results

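The genes described here build cholesterol, control its synthesis through the transcription factor SREBP2, or bring sterol into the cell and move it between membranes. The group was set as a list of gene symbols, drawn up with earlier results of these data known, and holds 32 of the 56805 genes of a bulk RNA-seq count table from mouse CD8+ T cells. By role, 7 members belong to the mevalonate arm, 12 to the squalene and sterol arm, 7 to SREBP2 control, and 6 to uptake and transport. All 32 passed the filter on low counts and were among the 16006 genes tested.

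The cells were OT-I T cells, which carry a transgenic receptor for an ovalbumin peptide, from Cas9 knock-in mice. They were activated in vitro and transduced with a lentiviral vector that also encodes the surface marker CD90.1. The sgElovl1 cells received a guide against Elovl1, which encodes an elongase of very-long-chain fatty acids, and the sgNT cells a non-targeting guide, and CD90.1+ cells were sorted 3 days after transduction. Cas9, the transgenic receptor, the activation and the vector were thus common to both groups, and sgElovl1 denotes a population edited in bulk, not a clone. The 8 labelled samples fall into 2 experiments with 2 libraries per group in each, and the study summed the libraries of a group within an experiment. There are therefore 4 columns of counts, 1 per group and experiment, with 51621372 and 57341720 counts in the sgElovl1 columns of experiments 1 and 2, against 63623476 and 49068952 in the sgNT columns. Every spread and p-value given here rests on these 4 sums, since no value of a single mouse was analysed.

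Acetyl-CoA is condensed and reduced to mevalonate, which is phosphorylated and decarboxylated to isoprenoid diphosphates. These are joined to squalene, and squalene is oxidised, cyclised to lanosterol and trimmed to cholesterol. When membranes of the endoplasmic reticulum hold enough sterol, the INSIG proteins retain the escort protein SCAP with its cargo SREBP2. When sterol is scarce the complex travels to the Golgi, where proteases release the part of SREBP2 that activates genes of synthesis and uptake, Insig1 among them. T cells raise this programme upon activation, because dividing cells need new membrane.

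As the promoters of these genes are where SREBP2 and its partner factors act, the 250 bases before the annotated start site are printed for 3 members on which the results turn: Insig1, the member past the threshold in sgElovl1 cells, and Hmgcs1 and Idi1, which differed widely between the experiments. Tmem97, Lrp8 and Acat2, at log2 fold changes of -1.24, -1.21 and -1.20, differed more than Hmgcs1, at -1.10, and are not printed. The sequences are from RefSeq on GRCm38.p6, all on the plus strand and 5′ to 3′, at chr5:28071162-28071411 for Insig1, chr13:119690101-119690350 for Hmgcs1 and chr13:8885356-8885605 for Idi1. Capitals mark matches on either strand to a sterol regulatory element core (TCACNCCAC), a CCAAT box (CCAAT), a GC box (GGGCGG) and an E-box (CACGTG).
Insig1: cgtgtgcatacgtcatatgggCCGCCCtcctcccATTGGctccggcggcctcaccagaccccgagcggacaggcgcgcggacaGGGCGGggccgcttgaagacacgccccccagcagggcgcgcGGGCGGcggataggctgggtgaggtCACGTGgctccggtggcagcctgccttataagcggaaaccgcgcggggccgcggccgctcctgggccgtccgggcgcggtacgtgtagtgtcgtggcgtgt
Hmgcs1: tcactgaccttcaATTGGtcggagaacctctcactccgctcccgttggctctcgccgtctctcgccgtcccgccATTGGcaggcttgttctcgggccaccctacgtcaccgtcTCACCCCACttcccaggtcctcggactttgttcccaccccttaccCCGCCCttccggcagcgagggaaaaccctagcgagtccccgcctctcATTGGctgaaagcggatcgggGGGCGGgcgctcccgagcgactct
Idi1: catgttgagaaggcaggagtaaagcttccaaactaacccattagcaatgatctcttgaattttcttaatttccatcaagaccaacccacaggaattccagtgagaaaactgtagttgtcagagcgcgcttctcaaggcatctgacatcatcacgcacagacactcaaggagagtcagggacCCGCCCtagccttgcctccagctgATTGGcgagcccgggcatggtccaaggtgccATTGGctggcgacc

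Insig1 held 1 CCAAT box, 3 GC boxes and 1 E-box in this stretch, Hmgcs1 held the sterol regulatory element core together with 3 CCAAT boxes and 2 GC boxes, and Idi1 held 2 CCAAT boxes and 1 GC box. A promoter window of 250 bases before and 50 bases after the start was at hand for 25 of the 32 members, the others being Fdps, Fdft1, Sqle, Npc1, Stard4, Scarb1 and Rnf139. The end of this window was found in a GENCODE transcript of the gene for Insig1 and Idi1. For Hmgcs1 it was not, so the start used there is less certain. A gene with several annotated starts had several windows and was counted if any of them held the motif. Among the members these were Pmvk, Dhcr7, Scap, Insig2 and Lrp8. A CCAAT box was present in 20 of the 25 members (80%), against 41.1% of all 27025 genes with a window and 42.9% of those tested. Among the synthesis enzymes it was present in 15 of 16 (93.8%). A GC box was found in 22 of 25 members (88%), against 38.2% of all genes and 66.5% of those tested. The E-box was found in 5 of 25 (20%), against 8.09% of all genes and 11.3% of those tested, and the sterol regulatory element core, in this strict spelling, in Hmgcs1 only, 4% of the members against 1.44% of all genes. These shares describe letters in a window, and a gene without a match may hold another spelling or a site elsewhere.

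The columns were first set against their labels. Elovl1 had 61.3 and 55.8 CPM (counts scaled to library size, with TMM factors) in the sgElovl1 columns of experiments 1 and 2, against 110 and 93.5 CPM in the sgNT columns. The fit put this at -0.80 on the log2 scale (SE 0.07, with an adjusted p of 3.8e-28 by the quasi-likelihood test of edgeR), so that 57.5% of the sgNT level remained. Reads from an edited transcript can still be counted, so this share does not measure the protein. The 7 CD8 T cell markers together held 4052 to 4331 raw CPM per column (counts over the column total, without TMM factors), while the summed markers of B cells, myeloid cells, NK cells, CD4 T cells and epithelial cells held between 0.409 and 10.2 raw CPM, with Ms4a1 and Ncr1 at 0 counts in every column.

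The level of the sterol genes ranged widely. Levels between genes were compared as CPM per kilobase of exon, averaged over the 4 columns. As the authors counted reads over whole genes, introns included, this scale is approximate. Fdps, which makes farnesyl diphosphate, led with 287 CPM per kilobase, above 98.6% of the genes with a length. Lbr, a sterol reductase that also anchors chromatin at the nuclear envelope, followed with 92.2, and Npc2, which hands cholesterol to the lysosomal membrane, with 86.1 CPM per kilobase. Lbr ranged over 86.6 to 101 and Npc2 over 69.3 to 103 CPM per kilobase, and Npc2 was the higher of the pair in both columns of experiment 2, so their order was not resolved. Next came Hmgcs1, the synthase that makes HMG-CoA, at 62.1 and Srebf2, which encodes SREBP2, at 62.0 CPM per kilobase. Here too the columns overlapped, with Hmgcs1 over 38.2 to 89.0 and Srebf2 over 57.3 to 68.2 CPM per kilobase. Insig1 had 28.8 CPM per kilobase, against 4.68 for its paralogue Insig2. The lowest were Hsd17b7, a ketoreductase of late sterol synthesis, at 2.08 and Mbtps2, a Golgi protease that releases SREBPs, at 1.26 CPM per kilobase.

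**Figure D1:**
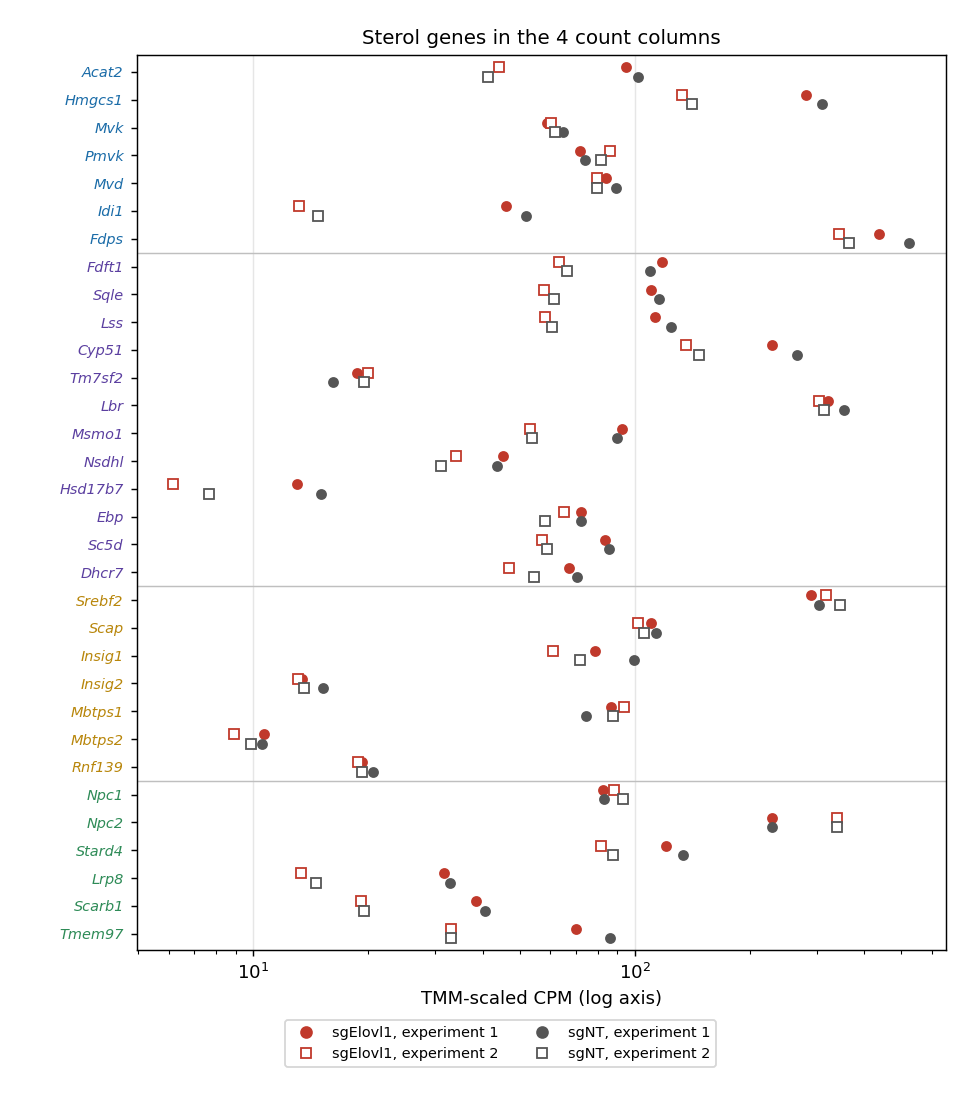
TMM-scaled CPM (log axis) of the 32 sterol genes in the 4 columns, red for sgElovl1 and grey for sgNT, filled circles for experiment 1 and open squares for experiment 2; gene names are coloured by role, from the mevalonate arm at the top to uptake and transport at the bottom. Red and grey symbols of an experiment lie close together for most genes, whereas for Idi1 the experiments lie apart, at 13.2 and 14.8 CPM in experiment 2 and 46.0 and 51.8 CPM in experiment 1.

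The comparison of sgElovl1 with sgNT asked whether loss of Elovl1 altered the transcripts of sterol metabolism. Insig1 fell in sgElovl1 cells, and no other member passed the threshold of 0.05 on the adjusted p. Over all genes 192 of 16006 were called in either direction (1.2%) and 70 were called lower (0.437%), while of the members 1 of 32 was lower and 0 higher. Most of the remaining members lay slightly below 0. The log2 fold change was negative for 24 of 32 members (75%), against 53.5% of all genes tested, and negative in both experiments for 22 (68.8%), against 30.1% of all genes. The median over the members was -0.07, with -0.07 in experiment 1 and -0.05 in experiment 2, beside -0.01 over all genes. It was -0.03 after a correction for the slope, over all genes of at least 5 CPM, of the sgElovl1 fold change on the fold change between experiments (the shift between experiments). With this shift removed, 21 members lay below 0 and 11 above. With a column left out, and hence no experiment term, the median was -0.35 without sgElovl1 and 0.14 without sgNT of experiment 1, and 0.13 without sgElovl1 and -0.26 without sgNT of experiment 2. Such fits mixed guide and experiment, and 26 members took the other sign in at least 1 of them. These counts and medians are a description and carry no test. The shares over all genes, here and below, were not matched on level. Every member had a mean of at least 9.99 CPM, while 9756 of the 16006 genes tested had a mean of at least 5 CPM.

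Insig1 encodes the retention protein of the endoplasmic reticulum described above. It had 78.5 and 61.04 CPM in the sgElovl1 columns of experiments 1 and 2, against 99.8 and 71.8 CPM in the sgNT columns. The sgElovl1 column was the lower one in each experiment, but across experiments the groups overlapped, because sgElovl1 of experiment 1 lay above sgNT of experiment 2. Its difference of -0.29 on the log2 scale had an SE of 0.07, a 95% interval of -0.42 to -0.16 and an adjusted p of 0.00468 in edgeR, and the experiments taken singly gave -0.35 (1) and -0.23 (2). The call depended on the test: the adjusted p was 0.00238 in limma-voom, but 0.313 with the DESeq2 Wald test and 0.281 with its likelihood-ratio test, at a log2 fold change of -0.28. In edgeR it was 0.0537 when genes below a mean of 5 CPM were left out and 1.00 without a term for the experiment. Without that term no gene of the table was called, Elovl1 included, so that fit could not test the call of Insig1. Fits on 3 of the 4 columns had to drop the experiment term and so mixed guide and experiment. In these the log2 fold change of Insig1 was -0.49 without sgElovl1 and -0.04 without sgNT of experiment 1. It was -0.11 without sgElovl1 and -0.49 without sgNT of experiment 2. An exact permutation test over 2 columns against 2 cannot go below p = 0.333, and for Insig1 it gave p = 0.667. It exchanged columns freely across the experiments and ignored their matching, so it cannot decide on the call.

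The other genes of SREBP2 control did not pass the threshold. Srebf2 had 291 and 317 CPM in the sgElovl1 columns of experiments 1 and 2, against 305 and 346 CPM in the sgNT columns. The sgElovl1 column was the lower one within each experiment and the groups overlapped across them, with a log2 fold change of -0.10 (SE 0.06, 95% interval -0.22 to 0.03, adjusted p = 0.629 in edgeR). Scap, the escort protein, had 111 and 102 CPM in the sgElovl1 columns, against 114 and 106 CPM in the sgNT columns, a log2 fold change of -0.04 (SE 0.07). Insig2 had 13.4 and 13.1 CPM in the sgElovl1 columns, against 15.3 and 13.6 CPM in the sgNT columns. Both sgElovl1 columns of Insig2 lay below both sgNT columns, and the same was true of Mvk and Rnf139. For each of them an exact permutation test gave p = 0.333, the lowest it can give. How many of all genes separated in this way was not counted. The interval of the log2 fold change of Insig2, -0.33 to 0.10 around -0.12, was wide at this depth. Mbtps1, the Golgi protease that makes the initial cut in SREBPs, stood on the other side of 0. It had 86.7 and 93.5 CPM in the sgElovl1 columns, against 74.7 and 87.5 CPM in the sgNT columns, with overlap across experiments and a log2 fold change of 0.16 (SE 0.07, adjusted p = 0.342 in edgeR). Mbtps2 and Rnf139, a ubiquitin ligase of the endoplasmic reticulum, were at -0.06 (SE 0.13) and -0.07 (SE 0.09).

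In the mevalonate arm 6 of 7 members lay below 0 (85.7%), against 53.5% of all genes tested, and the median log2 fold change was -0.09. Fdps had 436 and 343 CPM in the sgElovl1 columns of experiments 1 and 2, against 524 and 366 CPM in the sgNT columns. The fit gave -0.18 (SE 0.06) and edgeR an adjusted p of 0.195, and the value was -0.26 for experiment 1 against -0.09 for experiment 2. Idi1, the isomerase that supplies both isoprenoid units, had -0.17 in each experiment and -0.17 in the fit (SE 0.08). Hmgcs1 was at -0.12 (SE 0.06), Mvk, the mevalonate kinase, at -0.09 (SE 0.07), and Mvd, which decarboxylates mevalonate diphosphate, at -0.05 (SE 0.07). The signs of Acat2, the thiolase at the head of the pathway, and Pmvk, the phosphomevalonate kinase, were opposite in the 2 experiments, and their log2 fold changes were -0.01 and 0.01 (SE 0.07 each).

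In the squalene and sterol arm 7 of 12 members lay below 0 (58.3%), close to the 53.5% of all genes tested, with a median of -0.06. Cyp51, the lanosterol demethylase, had 229 and 137 CPM in the sgElovl1 columns of experiments 1 and 2, against 266 and 148 CPM in the sgNT columns. The sgElovl1 column was again the lower one in each experiment, with a log2 fold change of -0.16 (SE 0.06, adjusted p = 0.240 in edgeR). Hsd17b7 had the most negative value of the arm, -0.26, with the largest error of the arm (SE 0.13), at 6.17 to 15.1 CPM. Dhcr7, which reduces a double bond of the sterol ring, was at -0.14 (SE 0.07). Lss, the lanosterol synthase, Lbr and Sqle, the squalene epoxidase, had -0.10, -0.09 and -0.07 (SE 0.07, 0.06 and 0.07). Sc5d, a late desaturase, was at -0.04 (SE 0.07). Above 0 were Tm7sf2, a sterol reductase, at 0.12 (SE 0.10), Nsdhl, a sterol dehydrogenase, at 0.09 (SE 0.08), Ebp, the sterol isomerase, at 0.08 (SE 0.07), Fdft1, the squalene synthase, at 0.02 (SE 0.07) and Msmo1, the methylsterol oxidase, at 0.01 (SE 0.07).

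Of the uptake and transport genes, 5 of 6 lay below 0 (83.3%), against 53.5% of all genes tested, with a median of -0.07. Tmem97, a sigma receptor that binds the lysosomal sterol exporter NPC1, had 70.0 and 33.0 CPM in the sgElovl1 columns of experiments 1 and 2, against 86.4 and 33.1 CPM in the sgNT columns. The value of -0.16 (SE 0.07, adjusted p = 0.353 in edgeR) joined -0.30 in experiment 1 to 0.00 in experiment 2. Stard4, a cytosolic sterol carrier, was at -0.13 (SE 0.07), with -0.15 and -0.11 in experiments 1 and 2. Lrp8, a receptor for apolipoprotein E, had -0.09 (SE 0.09), Scarb1, the receptor for high-density lipoprotein, -0.05 (SE 0.08), Npc1 -0.05 (SE 0.07) and Npc2 0.00 (SE 0.06).

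**Figure D2:**
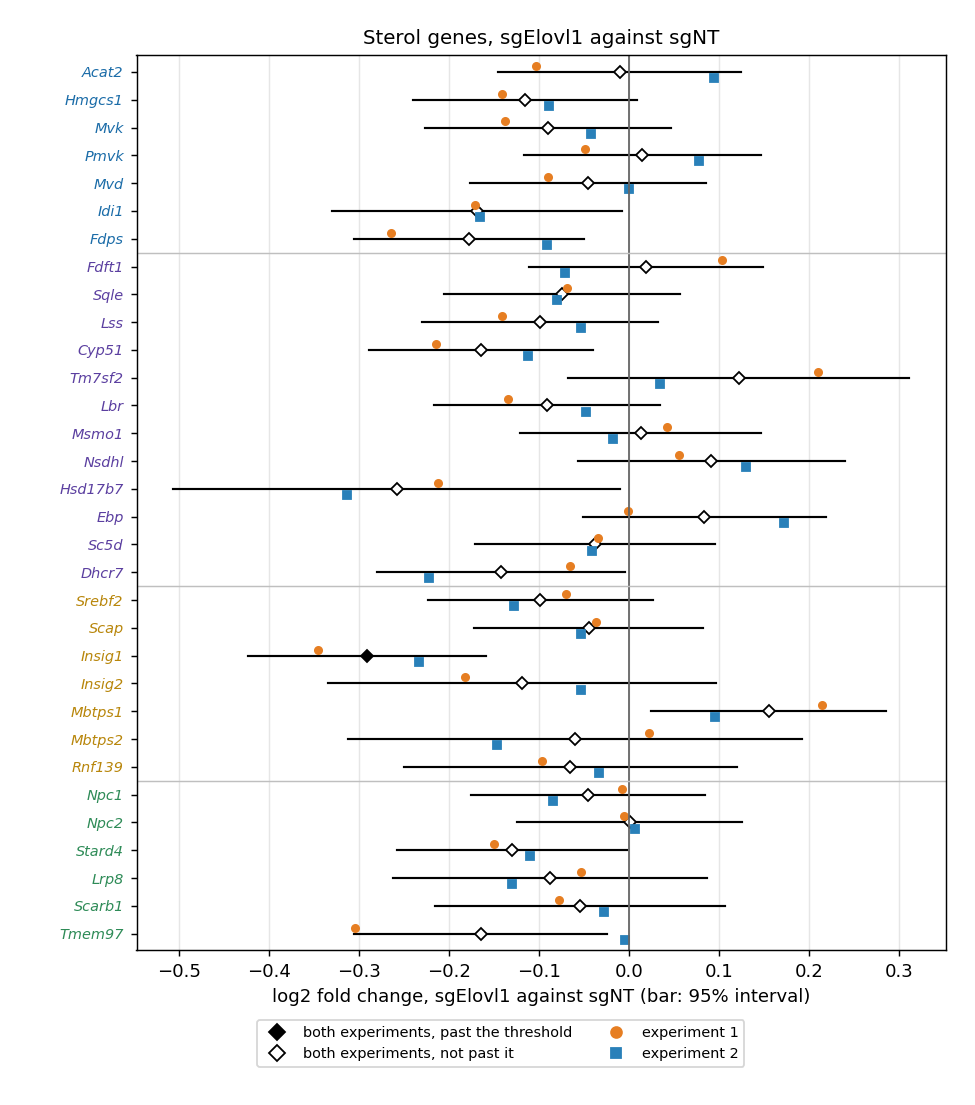
Log2 fold change of each sterol gene, sgElovl1 against sgNT, from the fit of both experiments (diamond, filled where past the threshold, with the 95% interval as a bar) and in experiment 1 (circle) and experiment 2 (square) alone. Insig1, at -0.29, has the only filled diamond, and 24 of the 32 diamonds lie below 0.

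The intervals give the sizes of change that these columns can exclude. The 95% interval lay wholly within a 1.2-fold change either way for 21 of 32 members, it excluded a 1.2-fold rise for 30, and it excluded a 1.2-fold fall for 23. At an unadjusted p under 0.05 stood 9 members, 8 lower and 1 higher. They were 28.1% of the members, against 10.6% of all genes tested, a share not matched on level. This count depended on the scaling: it was 5 with DESeq2 size factors, with upper-quartile factors or with mitochondrial and top genes left out of scaling, 3 with the shift between experiments removed, and 3 in either DESeq2 test. With 1 residual degree of freedom these errors lean on the spread that edgeR shares across all genes, a biological coefficient of variation of 6.98%.

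More members were called between the 2 experiments than between the guides, 23 against 1. The same held over all 16006 genes tested, of which 192 were called between the guides. Between the experiments 4677 of them were called lower and 4219 higher in experiment 2. The labels only number the experiments, and the sources of a difference between them cannot be told apart. In the same fit, 19 of 32 members (59.4%) were lower in experiment 2 than in experiment 1, where 29.2% of all genes tested were called lower. Another 4 members were higher, where 26.4% of all genes were called higher, and 9 did not pass the threshold. The median log2 fold change of experiment 2 against experiment 1 was -0.44, beside 0.00 over all genes. It was -0.39 between the sgElovl1 columns and -0.48 between the sgNT columns. Summed over the 19 synthesis enzymes, experiment 2 had 1662 CPM in the sgElovl1 and 1720 CPM in the sgNT column, against 2358 and 2579 CPM in experiment 1.

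The squalene and sterol arm was mostly lower in experiment 2, 10 of 12 members passing the test (83.3%), against 29.2% of all genes tested. Its median was -0.66. Lss was at -0.997 (SE 0.07), Sqle at -0.92 (SE 0.07), Fdft1 at -0.81 (SE 0.07), Cyp51 at -0.80 (SE 0.06) and Msmo1 at -0.78 (SE 0.07), all past the threshold in edgeR. Hsd17b7 was lower by a similar amount, -1.03 (SE 0.13). Lbr and Tm7sf2, which encode alternative reductases for the same step, did not pass the threshold, at -0.13 and 0.19 (adjusted p = 0.0823 and 0.0872 in edgeR).

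The mevalonate arm was split. Idi1 had 13.2 CPM in the sgElovl1 and 14.8 CPM in the sgNT column of experiment 2, against 46.0 and 51.8 CPM in experiment 1. The experiments did not overlap, and the log2 fold change of -1.81 (SE 0.08, adjusted p = 2.72e-100 in edgeR) was the largest of any member, and 2.06% of all genes tested were at least as low. Hmgcs1 had 133 and 142 CPM in the sgElovl1 and sgNT columns of experiment 2, against 281 and 310 CPM in experiment 1, a log2 fold change of -1.10 (SE 0.06). Acat2 had 44.1 and 41.3 CPM in experiment 2, against 94.7 and 102 CPM in experiment 1, in the same order of guides. Fdps was lower too, at -0.43 (SE 0.07). The consecutive kinases and the decarboxylase behaved otherwise: Mvk was at -0.02 (SE 0.07), Mvd at -0.12 (SE 0.07) and Pmvk was higher, at 0.20 (SE 0.07, adjusted p = 0.00594 in edgeR).

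Among the genes of SREBP2 control only Insig1, itself a known SREBP target, was lower in experiment 2, at -0.42 (SE 0.07, adjusted p = 2.27e-09 in edgeR). This was 14.3% of the 7 genes, against 29.2% of all genes tested. Srebf2 was higher, at 0.15 (SE 0.06), as was Mbtps1, at 0.17 (SE 0.07), with adjusted p = 0.0316 and 0.0229 in edgeR. These were 2 of the 7 genes, where 26.4% of all genes tested were called higher. Of all genes tested, 58.8% were at least as low in experiment 2 as Srebf2. Scap, Insig2, Mbtps2 and Rnf139 did not pass the threshold, with log2 fold changes between -0.18 and -0.06. In both DESeq2 tests Mbtps1, and Ebp of the sterol arm, were no longer past the threshold between the experiments, while with upper-quartile factors or a mean of at least 5 CPM Tm7sf2 and Npc1 became higher past it. Srebf2 was therefore higher in the experiment in which 14 of the 19 synthesis enzymes were lower (73.7%, against 29.2% of all genes tested).

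Of the uptake and transport genes 4 of 6 were lower in experiment 2 and 1 was higher, where 29.2% of all genes tested were lower and 26.4% higher. Tmem97 was at -1.24 (SE 0.07), Lrp8 at -1.21 (SE 0.09) and Scarb1 at -1.03 (SE 0.08), and Stard4 at -0.59 (SE 0.07), each lower past the threshold in edgeR. Of the lysosomal pair, Npc2 had 340 and 338 CPM in the sgElovl1 and sgNT columns of experiment 2, against 228 and 229 CPM in experiment 1, and was higher at 0.57 (SE 0.06, adjusted p = 7.71e-18 in edgeR). Npc1 was at 0.13 and did not pass it (SE 0.07, adjusted p = 0.0851 in edgeR).

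**Figure D3:**
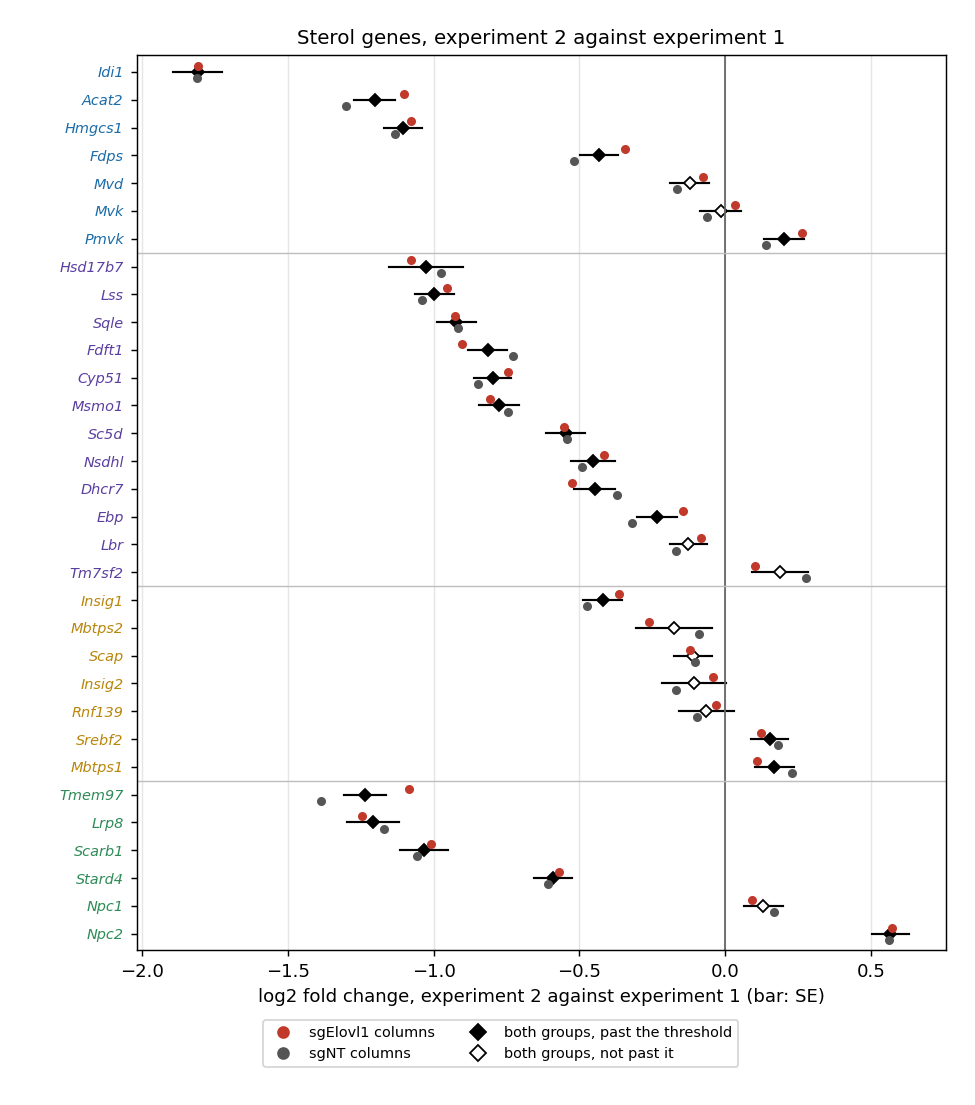
Log2 fold change of each sterol gene, experiment 2 against experiment 1, from the fit of both groups (diamond, filled where past the threshold, with the SE as a bar) and between the sgElovl1 columns (red) or the sgNT columns (grey) alone. Idi1 lies at -1.81 in the fit and in each group, and Npc2 at 0.57 is the highest.

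Marker genes also differed between the experiments, in both directions. Of the 7 CD8 T cell markers, Cd8a and Cd8b1 were higher in experiment 2, at 0.48 and 0.46, as were Cd3g and Cd2, at 0.16 and 0.15, while Trac was lower, at -0.52, all past the threshold in edgeR. Cd3e and Lck, at 0.04 and 0.05, did not pass it. Over all genes tested 26.4% were called higher and 29.2% lower in experiment 2. The 4 myeloid markers together had 3.73 and 3.46 raw CPM in the sgElovl1 and sgNT columns of experiment 2, against 0.910 and 0.943 raw CPM in experiment 1, with Lyz2 at 0 or 1 count in every column. Most of this was Itgam, with 149 and 114 counts in experiment 2, against 21 and 16 counts in experiment 1. The 2 CD4 T cell markers had 10.2 and 8.82 raw CPM in experiment 2, against 5.68 and 4.29 raw CPM in experiment 1, nearly all from Foxp3, while Cd4 had 0 counts in both columns of experiment 2. Of the 2 epithelial markers, Epcam was lower in experiment 2, with 15 and 37 counts, against 78 and 60 counts in experiment 1. Krt18 lay the other way, with 14 and 16 counts in experiment 2, against 3 and 12 counts in experiment 1. It did not pass the threshold (adjusted p = 0.248 in edgeR). The B cell and NK cell markers did not pass the threshold in edgeR. The part of these markers in the difference was not tested. In bulk RNA, fewer cells of a kind and less RNA per cell cannot be told apart.

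**Figure D4:**
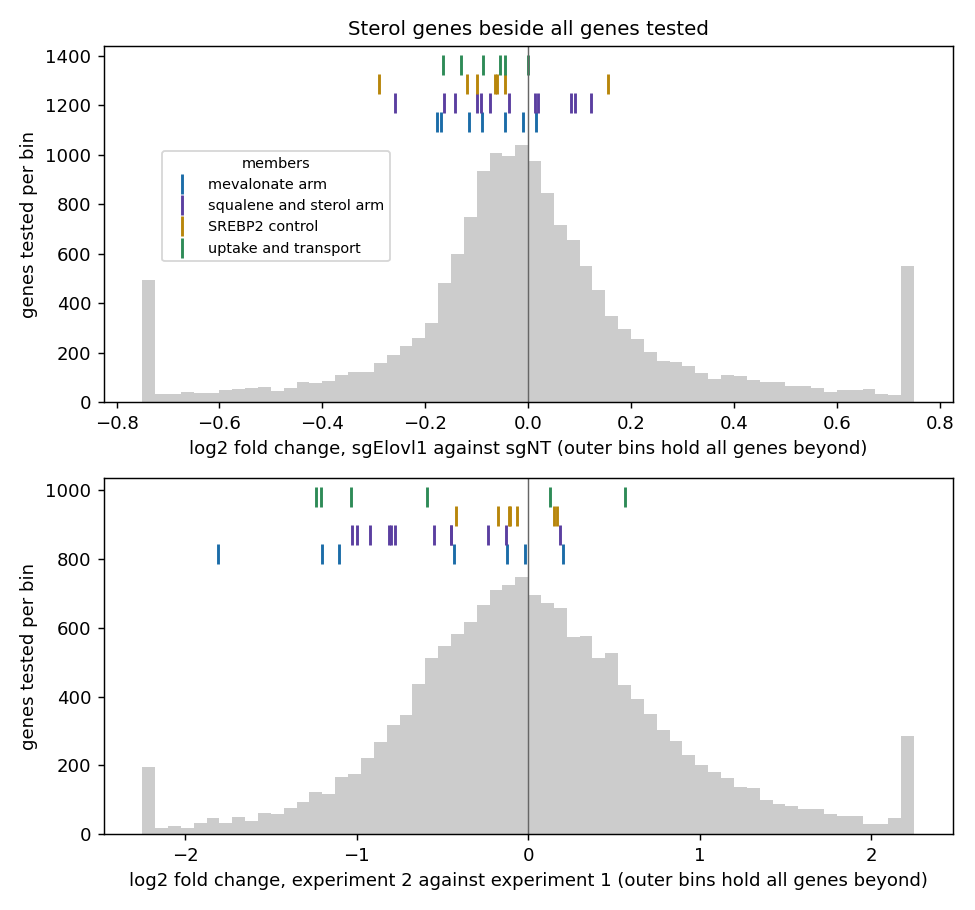
Log2 fold changes of all 16006 genes tested (grey histograms, genes per bin) with each sterol gene as a tick coloured by role, for sgElovl1 against sgNT (top) and experiment 2 against experiment 1 (bottom). The members gather just below 0 at the top, with a median of -0.07, and spread over -1.81 to 0.57 at the bottom.

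Genes next to the pathway were read from the same fit, in lists that do not overlap the members. None of these lists had a gene past the threshold between sgElovl1 and sgNT, and the counts at an unadjusted p under 0.05 in edgeR were 2, 2, 0 and 1 in the order given here, or 12.5%, 14.3%, 0% and 7.69% of each list, beside 10.6% of all genes tested. In the isoprenoid branches, which draw on the mevalonate arm to make dolichol, ubiquinone and prenylated proteins, 11 of 16 genes lay below 0, where 53.5% of all genes did, with a median of -0.11. The smallest p belonged to Icmt, which methylates prenylated proteins, at -0.22 (SE 0.08, adjusted p = 0.164 in edgeR) and Dhdds, a subunit of the dolichol synthase, at -0.17 (SE 0.07). Among 14 genes for the degradation of sterol regulators, Ube2g2, a ubiquitin-conjugating enzyme, had -0.18 (SE 0.08) and Erlin1, a scaffold of the endoplasmic reticulum, -0.33 (SE 0.16). Among 12 genes of the COPII coat and the SCAP-SREBP complex, Srebf1 (SREBP1) included, Sec31a of the coat had 0.12 (SE 0.07). Sec24d, a cargo adaptor, had -0.18 (SE 0.11). Of 13 tested genes of other uptake and sterol transfer, Gramd1a, which moves cholesterol out of the plasma membrane, had 0.20 (SE 0.07, adjusted p = 0.154 in edgeR) and Lipa, the lysosomal lipase, -0.14 (SE 0.08). Between the experiments, 12 of the 16 isoprenoid genes were lower in experiment 2 and 2 higher. Of the 14 degradation genes 5 were lower and 5 higher, and of the 12 COPII and SCAP-SREBP genes 7 were lower and 3 higher. Of the 13 transfer genes 3 were lower and 5 higher. Over all genes tested 29.2% were lower and 26.4% higher.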

How the data were processed

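Strand-specific mRNA libraries were aligned by the authors with STAR 2.7.10b to GRCm39 (mm39), and featureCounts 2.0.1 counted reads over whole genes on the reverse strand. The deposited values are raw counts, the replicate libraries of a group being summed within each experiment, and how reads of several loci were treated is not given in the sources used here. Here, R 4.3.3 and edgeR 4.0.16 were used to drop low genes (filterByExpr), apply TMM factors and run quasi-likelihood F tests on a model of experiment plus group, with Benjamini-Hochberg adjustment over all 16006 genes tested (threshold 0.05). The smallest level that 3 counts allow was 0.0474 to 0.0601 CPM per column, for counting error only. DESeq2 1.42.0, limma 3.58.1, other scalings, filters and terms were alternatives. Simulated counts were used to test the script. Exon lengths came from GENCODE and promoters from RefSeq, both on GRCm38. All members are named, with values in each column for Srebf2, Scap, Insig1, Insig2 and the 4 others of smallest p, and 2 genes of smallest p per neighbouring list. Members and lists were chosen with earlier results of these data known. Columns of a single mouse were not analysed here, and some genes of the pathway are not reported here.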

Additional observations from a re-analysis of the deposited data

How the results depend on the processing

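No paired analysis was possible because each column sums the libraries of a group, so that replicate numbers are lost; the columns were matched by experiment only, through the experiment term. Between sgElovl1 and sgNT, the count of members past the threshold stayed at 1 under the other scalings, without a filter, in limma-voom and with the shift along the experiment difference removed (5, 7, 9 and 3 at an unadjusted p under 0.05). It was 0 with a mean of at least 5 CPM (4 at an unadjusted p under 0.05 in edgeR), 0 with either DESeq2 test (3), 0 without the experiment term (0) and 0 to 0 with each column left out (0 to 1). Over all genes the count was 192, but 94 without a filter, 35 at 5 CPM, 26 in DESeq2, 0 without the experiment term and 72 with the shift removed. The members' median was -0.0509 with upper-quartile factors, -0.0471 when mitochondrial and top genes were left out of scaling, -0.0529 at 5 CPM, -0.0348 with the shift removed and -0.35 to 0.14 with each column left out, which by construction mixes guide and experiment. Acat2 changed sign, to 0.00386 with size factors, 0.00923 with upper-quartile factors, 0.0124 without mitochondrial and top genes, 0.00694 at 5 CPM, 0.00643 in DESeq2 and 0.0965 with the shift removed. Removing the shift also turned Pmvk to -0.00337, Sqle to 0.00776, Sc5d to 0.0106, Npc2 to -0.0497, Lrp8 to 0.0190 and Scarb1 to 0.0373, and Npc2 was -0.00489 without a filter. None of these signs belonged to a called gene. Between experiments the count was 21 to 25 beside 23, and Mvk turned to 0.0679, 0.00241 and 0.0462 with upper-quartile factors, no filter and 5 CPM, and Rnf139 to 0.0191 with upper-quartile factors. Other causes were not tested. In the 150 bases before the start, 76% of members held a CCAAT box, against 27.7% of all genes.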
